A study of Aspergillus cristatus with 9 samples.

Results

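The genes described here encode the 3 nuclear RNA polymerases of *Aspergillus cristatus*, the golden flower fungus, and the basal transcription factors that place RNA polymerase II on a promoter. They were chosen by annotation and not by their expression. A gene was taken where the pathway column of the deposited gene table gives the KEGG map of RNA polymerase or that of basal transcription factors, and a gene that also carries the map of nucleotide excision repair, to which TFIIH belongs as well, was left out. The rule found 55 of 10227 genes, 30 on the first map and 25 on the second, and 14 genes were left out. RNA was sequenced in 9 libraries, 3 for each of 3 groups, and every group is strain JLU, also named *Eurotium cristatum* in the labels. EcCK is the control, fungus that never met *Panax* roots. EcRS is the fungus harvested from sterilized roots of *P. ginseng*, and EcSQ that from sterilized roots of *P. notoginseng*, after 1 week at 28 °C. The inoculum came from potato dextrose agar plates where the strain had grown for 10 days, and the labels give an age of 1 week and mycelium as the tissue for all groups, whereas the study's methods describe EcCK as spores taken from plates. Growth medium and perhaps growth stage changed together with root contact, so their parts cannot be told apart. No source states that libraries of a group are separate cultures, and the p-values below therefore measure the spread between these libraries, which may be technical.

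RNA polymerase I makes the large ribosomal RNA, RNA polymerase II makes messenger RNA, and RNA polymerase III makes transfer RNA and 5S ribosomal RNA. Each has a pair of very large subunits that form the catalytic core, a set of smaller subunits of its own, and small subunits that it shares with the other polymerases. RNA polymerase II is guided to a promoter by TFIID, a complex of the TATA-binding protein (TBP) and its associated factors (TAFs), and then by TFIIA, TFIIB, TFIIF, TFIIE and TFIIH. Several TAFs also belong to SAGA, a coactivator that acetylates histones.

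The names of subunits used here come from the orthology numbers in the table, since 13 of the 55 genes are described by name there. The 55 genes carry 47 orthology numbers, and 15 genes share a number with another of the 55. The gene ontology terms of 9 genes hold no term on transcription, and these are pointed out where they appear. The genes lie on 16 of the 54 contigs, with coding lengths from 222 to 5229 bases. Coordinates below are those of the table, whose contigs are given by number.

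Estimated counts in listed genes ranged from 45891944 to 61627866 per library. In every EcCK and EcRS library they exceed the valid reads that the study lists, so they are not counts of sequenced fragments. Expression was read as FPKM, fragments per kilobase scaled to the mapped total of the library, and that total includes signal outside the listed genes. That outside share was 12.1 to 14.1% in EcCK, 12.1 to 14.9% in EcSQ and 23.1 to 26.9% in EcRS. It moved with the main comparison, so TMM scaling (trimmed mean of M-values), which sets libraries level on the bulk of their listed genes, was run beside it. The share of valid reads listed by the study moved with the comparison too, and was lower in every EcRS library than in any EcCK library. Its part in the results was not tested. In EcRS against EcCK a gene given below without a TMM value had the same call under TMM. TMM raised the log2 fold change of EcRS over EcCK by 0.74 to 0.93 for the 55 genes and moved the median over all genes from -0.96 to -0.11. In these bulk samples, fewer cells that use a gene and less of its RNA per cell cannot be told apart.

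The EcSQ libraries were not alike. Between-library SDs of log2(FPKM + 1) had a median of 0.96 over the 55 genes in EcSQ, against 0.29 in EcCK and 0.21 in EcRS. The third library, EcSQ3, correlated with the EcRS libraries at 0.927 to 0.943 and with EcCK at 0.431 to 0.458 over these genes (Pearson's r across genes, which are not independent). EcSQ2 had 0.88 to 0.91 with EcRS and 0.60 to 0.65 with EcCK, and EcSQ1 had 0.79 and 0.71 to 0.77. Closeness to EcRS was thus strongest in EcSQ3 but not confined to it. Results for EcSQ are therefore given with and without EcSQ3.

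**Figure D1:**
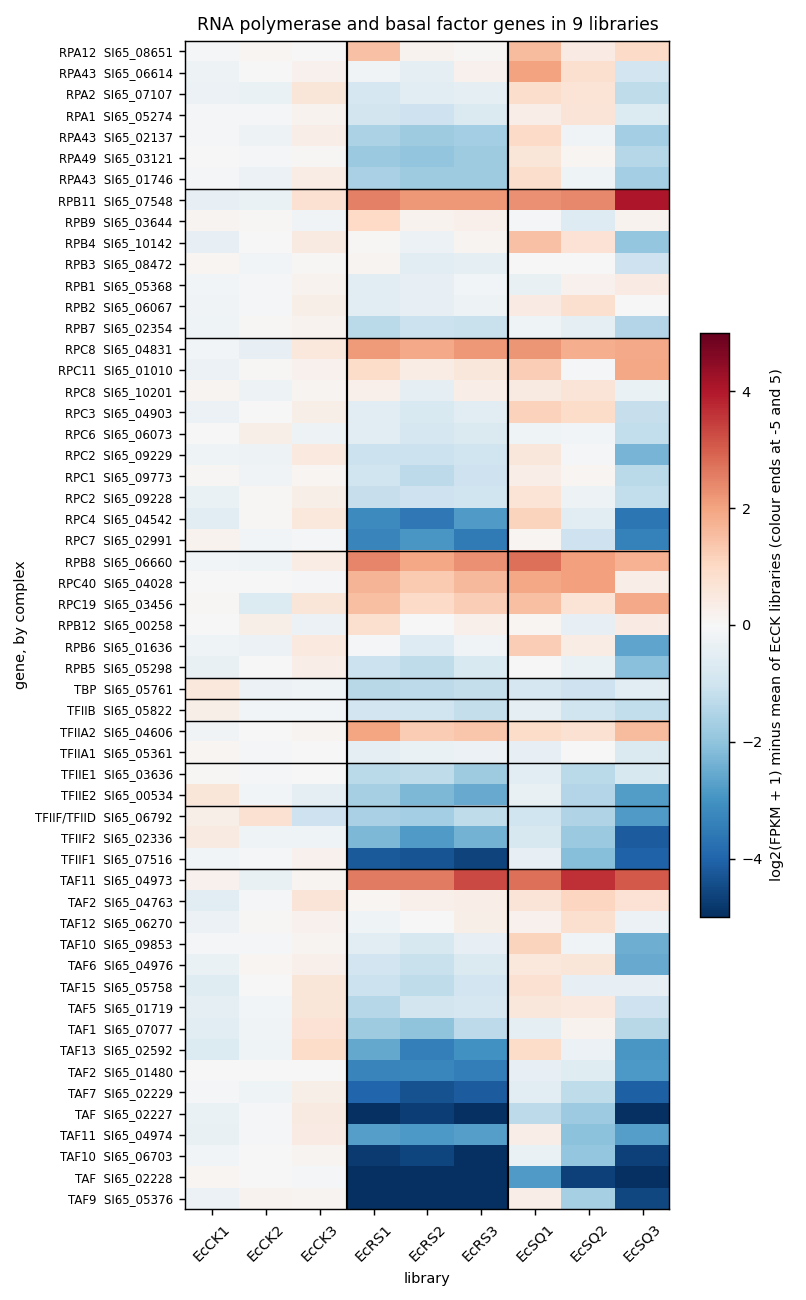
Level of each of the 55 genes (rows, by complex) in the 9 libraries (columns), as log2(FPKM + 1) minus the mean of the 3 EcCK libraries, with the colour scale ending at -5 and 5. Most TFIID, TFIIE and TFIIF genes are blue in all EcRS libraries, the lower block of TFIID genes most deeply, while RPB11, RPB8, RPC8 and *SI65_04973* are red in EcRS and EcSQ, and the column of EcSQ3 looks like those of EcRS.

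On *P. ginseng* roots 11 of 16 TFIID genes, 7 of the 11 with a transcription term, and all 5 of TFIIE and TFIIF were down-regulated. So were the polymerase subunits RPC7, RPC4 and RPA49, whereas RPB8, RPB11, RPC40, RPC19, RPC8 and TFIIA2 were up-regulated. A gene was called up- or down-regulated at an adjusted p of at most 0.05 over all genes tested and at least a 2-fold change, and all 55 genes passed the filter of a mean of 1 FPKM. In EcRS against EcCK, 28 of the 55 were down-regulated, 7 were up-regulated and 20 were not called. Over all 8925 genes tested, 47.6% were down-regulated and 12.8% up-regulated, so the counts over the 55 are near the background and are no result about them. Their median log2 fold change was -1.08, beside -0.96 for all genes. The EcRS libraries lay below all EcCK libraries for 37 of the 55 and above all of them for 9, beside backgrounds of 54.3% and 18.3%. Under TMM, 18 were down-regulated and 12 up-regulated, against backgrounds of 31.4% and 26.4%. All 18 and 7 of the 12 were among the calls before. Counts differed between the maps, a difference that was not tested. On the basal factor map 18 of 25 were down-regulated and 2 up-regulated (median -1.71), on the polymerase map 10 of 30 and 5 (median -0.40). Under TMM these counts became 12 and 3 of 25 (median -0.96) and 6 and 9 of 30 (median 0.44).

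**Figure D2:**
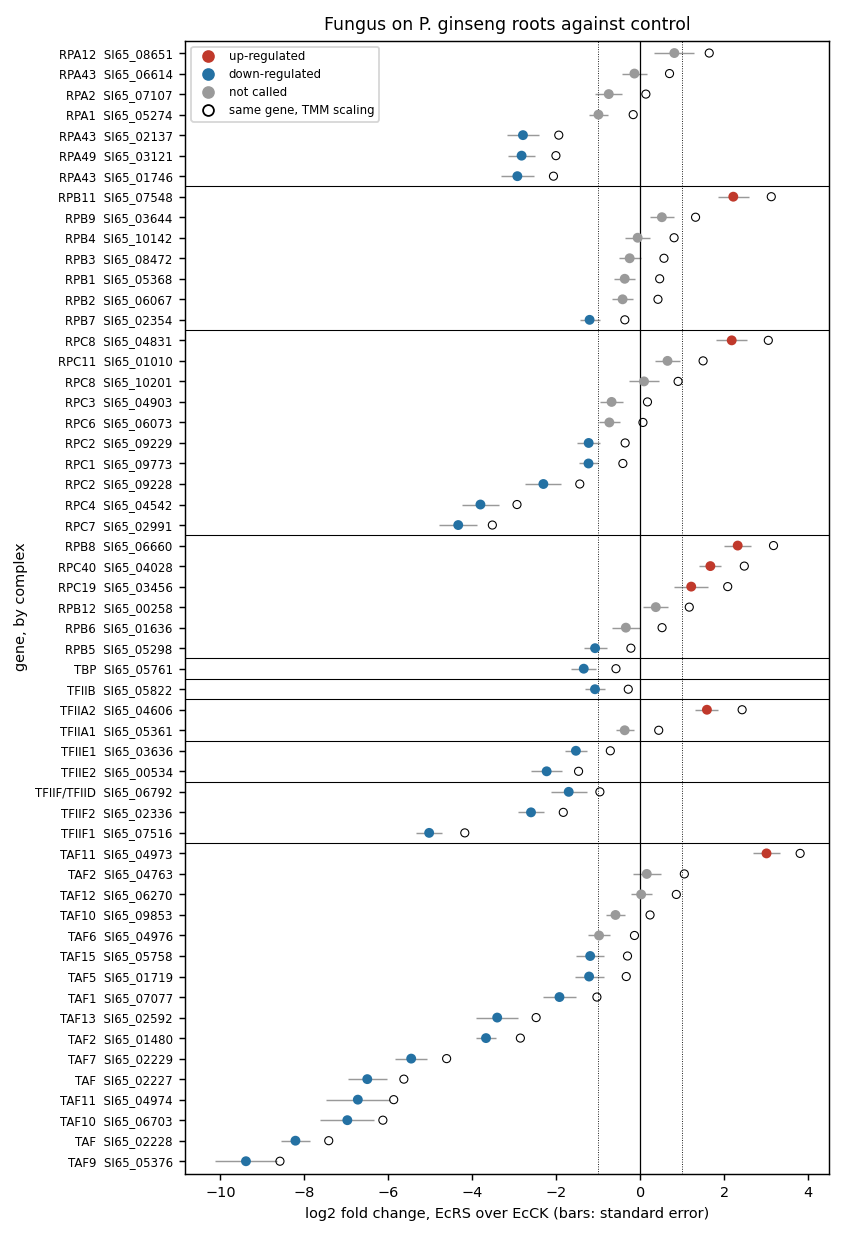
Log2 fold change of EcRS over EcCK for the 55 genes by complex, with the standard error of the fit as bars. Filled points are coloured by call, open circles give the same gene under TMM scaling, and dotted lines mark a 2-fold change. Points of TFIID reach from -9.39 to 3.00, while the polymerase genes lie between -4.34 and 2.32. The point at 3.00 is *SI65_04973*, which carries no transcription term, and the highest TFIID gene with such a term is TAF12 at 0.02.

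TFIID held the deepest falls. Of its 16 genes 11 were down-regulated and 1 up-regulated (median -2.67), and under TMM 9 and 2. Among the 9 TFIID genes that carry a transcription term, 7 were down-regulated and none up-regulated, and under TMM 6 and none. The shares over all genes were 47.6% down- and 12.8% up-regulated, and under TMM 31.4% and 26.4%. TAF9 (*SI65_05376*), a histone-fold subunit of both TFIID and SAGA, measured 28.1, 39.5 and 38.4 FPKM in EcCK. In EcRS it was listed at 0, 0.0351 and 0.115 FPKM, which rest on 0, 2 and 7 estimated counts against 1664 to 2535 in EcCK. The groups did not overlap. Its fitted log2 fold change was -9.39 ± 0.74 (SE, n = 3 per group, adjusted p = 2.0e-05), a size that is uncertain at so few counts. In EcSQ the gene went from 43.8 FPKM in EcSQ1 through 10.3 in EcSQ2 to 0.553 in EcSQ3, from above the EcCK libraries to nearly the level of EcRS.

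TAF10 (*SI65_06703*), also part of TFIID and SAGA, had 30.6, 34.3 and 37.2 FPKM in EcCK and 0.268, 0.460 and 0.0404 in EcRS. Each EcRS library was far below each EcCK library, and the log2 fold change was -6.98 ± 0.65 (adjusted p = 3.6e-05). TAF7 (*SI65_02229*), which in animals binds TAF1 and restrains its activity, had 26.6, 23.8 and 34.8 FPKM in EcCK and 0.865, 0.434 and 0.625 in EcRS (-5.46 ± 0.38, adjusted p = 1.5e-05). TAF1 (*SI65_07077*), a scaffold of TFIID, fell by 1.93 ± 0.39 on the log2 scale (adjusted p = 0.0021), from 15.5, 20.3 and 38.3 FPKM to 5.95, 4.90 and 8.65.

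Subunits that pair with each other in the complex changed by different amounts. TAF6 (*SI65_04976*), the histone-fold partner of TAF9, was not called at -0.98 ± 0.26, with 22.7, 30.2 and 33.8 FPKM in EcCK and 14.1, 12.6 and 17.1 in EcRS. TAF12 (*SI65_06270*), the partner of TAF4, had 34.0 to 47.8 FPKM in EcCK and 35.8 to 50.4 in EcRS (0.02 ± 0.25), so the groups overlapped. TAF11 (*SI65_04974*) and its partner TAF13 (*SI65_02592*) were both down-regulated. TAF11 had 4.65, 5.98 and 8.62 FPKM in EcCK and 0.0817, 0 and 0.0796 in EcRS, on 7, 0 and 6 counts (-6.73 ± 0.76, adjusted p = 9.0e-05). TAF13 had 22.9, 32.8 and 71.4 FPKM in EcCK and 5.51, 2.64 and 3.79 in EcRS (-3.41 ± 0.50, adjusted p = 0.00037). TAF5 (*SI65_01719*), a WD-repeat subunit, was called at -1.22 ± 0.34 (adjusted p = 0.012) but not under TMM, where it was at -0.34, nor without EcCK3, where it was at -0.84.

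The other 7 TFIID genes carry no transcription term, and their place in TFIID rests on the orthology number alone. *SI65_04973* shares the number of TAF11 with its neighbour *SI65_04974* (contig 4, 1633841 to 1635381 and 1635963 to 1637119, both on the minus strand, 581 bases apart), but its terms give acyltransferase activity. The neighbours moved in opposite directions. *SI65_04973* had 8.99, 5.74 and 8.46 FPKM in EcCK, 51.1, 51.4 and 83.7 in EcRS and 57.5, 106 and 71.4 in EcSQ, with no overlap of EcCK with either root group. Its log2 fold change in EcRS was 3.00 ± 0.32 (adjusted p = 6.9e-05).

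A run of 3 neighbouring genes on contig 2 was nearly silent in EcRS. *SI65_02227* (202125 to 203680, minus strand) is described as palC, a protein of the ambient pH response in *Aspergillus*, and shares a TAF orthology number with *SI65_02228* (204229 to 204879, minus strand), 548 bases away. TAF7 (205164 to 206627, plus strand) begins 284 bases further on and points away from them. *SI65_02228* had 179, 169 and 157 FPKM in EcCK and 0.485, 0.456 and 0.714 in EcRS (-8.21 ± 0.34, adjusted p = 8.1e-06), about 297-fold lower. In EcSQ it had 22.6, 5.60 and 0.267 FPKM, so each EcSQ library also lay below EcCK. *SI65_02227* had 35.8, 42.1 and 61.5 FPKM in EcCK and 0.301, 0.792 and 0.424 in EcRS (-6.50 ± 0.47, adjusted p = 1.6e-05).

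Of the remaining genes without such a term, *SI65_01480* and *SI65_04763* share the number of TAF2, a subunit that touches promoter DNA in yeast TFIID. *SI65_01480*, with a coding length of 1263 bases, had 44.2, 42.7 and 43.8 FPKM in EcCK and 3.57, 3.63 and 3.02 in EcRS (-3.67 ± 0.25, adjusted p = 1.4e-05). *SI65_04763*, with 3804 bases, had 10.7, 14.5 and 25.1 FPKM in EcCK and 16.9, 18.9 and 20.1 in EcRS (0.15 ± 0.33), and it was called up-regulated under TMM at 1.05. *SI65_09853*, the other gene with the TAF10 number, was not called (-0.59 ± 0.23). *SI65_05758* carries the number of TAF15, and its terms name export of messenger RNA. It was called at -1.19 ± 0.33 (adjusted p = 0.010), but not under TMM (-0.31) nor without EcCK3 (-0.84).

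All 5 genes of TFIIE and TFIIF were down-regulated, with no overlap between groups, and 3 of them stayed so under TMM. Over all genes 47.6% were down-regulated, and 31.4% under TMM. For 54.3% all EcRS libraries lay below all EcCK libraries. TFIIF brings the polymerase to the promoter, and TFIIE then recruits TFIIH to open the DNA. The large TFIIF subunit TFIIF1 (*SI65_07516*) had 49.5, 53.1 and 64.3 FPKM in EcCK and 2.05, 1.80 and 1.25 in EcRS. It was about 32.6-fold lower (log2 -5.03 ± 0.31, adjusted p = 1.2e-05), and -4.18 under TMM. The small subunit TFIIF2 (*SI65_02336*) had 83.0, 51.7 and 51.6 FPKM in EcCK and 11.9, 7.67 and 11.1 in EcRS (-2.60 ± 0.31, adjusted p = 0.00012). *SI65_06792*, listed by its terms in TFIIF, TFIID and several chromatin complexes, had 232, 321 and 90.9 FPKM in EcCK and 61.1, 58.1 and 78.2 in EcRS (-1.71 ± 0.43, adjusted p = 0.0065). EcCK3 was well below the other EcCK libraries in this gene, and under TMM its value of -0.96 was not called. TFIIE2 (*SI65_00534*) had 104, 61.5 and 49.9 FPKM in EcCK and 20.9, 13.6 and 11.2 in EcRS (-2.23 ± 0.37, adjusted p = 0.00067). TFIIE1 (*SI65_03636*) held a narrow range in EcCK, 29.4, 27.4 and 28.2 FPKM, and had 10.4, 11.3 and 7.61 in EcRS (-1.53 ± 0.25, adjusted p = 0.00070), but its TMM value of -0.71 was not called.

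TBP and TFIIB, the core of the promoter complex, were called, but both calls depended on the scaling. TBP (*SI65_05761*), which serves all 3 polymerases, had the highest EcCK mean of the 55 genes. It measured 673, 380 and 407 FPKM in EcCK and 179, 191 and 204 in EcRS (-1.35 ± 0.29, adjusted p = 0.0033), and under TMM -0.58. TFIIB (*SI65_05822*), which bridges TBP and the polymerase, had 90.1, 68.0 and 67.1 FPKM in EcCK and 37.5, 36.8 and 32.3 in EcRS (-1.08 ± 0.24, adjusted p = 0.0035), and under TMM -0.29. Without EcCK1 it was at -0.93 and not called. TFIIA, which steadies TBP on DNA, split. Its small subunit TFIIA2 (*SI65_04606*) rose from 63.4, 71.7 and 78.6 FPKM to 283, 170 and 188 (1.59 ± 0.28, adjusted p = 0.00091), whereas the large subunit TFIIA1 (*SI65_05361*) went from 93.5, 82.6 and 89.0 to 63.3, 70.4 and 71.2 and was not called (-0.37 ± 0.22, and 0.44 under TMM). The mean FPKM of the subunits differed 1.24-fold in EcCK, with the large one higher, and 3.13-fold in EcRS, with the small one higher.

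The catalytic subunits of RNA polymerases I and II were not called. RPB1 (*SI65_05368*), the largest subunit of polymerase II, had 51.2, 54.9 and 65.1 FPKM in EcCK and 38.3, 42.9 and 51.1 in EcRS. The highest EcRS value lay just under the lowest EcCK value, and the log2 fold change was -0.37 ± 0.25 (adjusted p = 0.21), or 0.46 under TMM. RPB2 (*SI65_06067*), the second largest, had 33.3, 34.7 and 45.9 FPKM in EcCK and 25.6, 27.7 and 31.7 in EcRS (-0.42 ± 0.24, and 0.42 under TMM). In polymerase I, RPA1 (*SI65_05274*) was just short of the 2-fold limit at -0.997 ± 0.23 (adjusted p = 0.0047, and -0.17 under TMM), with 11.4, 11.1 and 13.6 FPKM in EcCK and 5.89, 5.35 and 6.88 in EcRS. It was called without EcCK1 (-1.03), without EcCK2 (-1.05) or without EcRS3 (-1.10). RPA2 (*SI65_07107*) had 8.06, 7.94 and 16.0 FPKM in EcCK and 5.28, 6.68 and 7.01 in EcRS (-0.75 ± 0.33, and 0.13 under TMM).

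In polymerase III both catalytic subunits were called, but not under TMM. RPC1 (*SI65_09773*) had 14.6, 12.4 and 15.2 FPKM in EcCK and 6.52, 5.07 and 6.35 in EcRS (-1.23 ± 0.24, adjusted p = 0.0016, and -0.42 under TMM). RPC2 (*SI65_09229*) had 10.2, 9.87 and 17.2 FPKM in EcCK and 5.26, 5.16 and 5.45 in EcRS (-1.23 ± 0.28, adjusted p = 0.0041, and -0.36 under TMM), and without EcCK3 it was at -0.92 and not called. *SI65_09228* shares its orthology number and lies 226 bases upstream on contig 17 (162701 to 164321, against 164548 to 168305 for RPC2, both on the plus strand), but its terms give transmembrane transport. That gene was low throughout, 1.28, 2.01 and 2.52 FPKM in EcCK and 0.307, 0.414 and 0.434 in EcRS (-2.31 ± 0.43, adjusted p = 0.0013), and it dropped below the filter without EcCK2 or EcCK3.

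**Figure D3:**
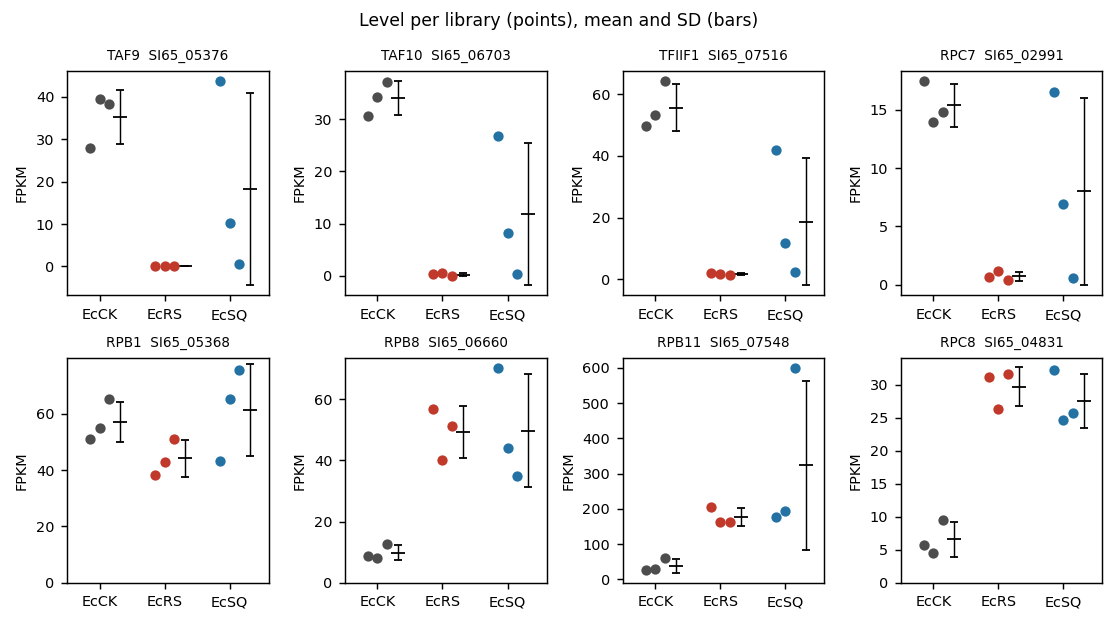
FPKM of 8 genes in each library (points), with the mean and SD of each group as bars, on linear axes. TAF9, TAF10, TFIIF1 and RPC7 are near 0 in the EcRS libraries, RPB1 stays within 38.3 to 75.4 FPKM in all 9, and RPB8, RPB11 and RPC8 are higher in EcRS and EcSQ than in EcCK, while in EcSQ the SD bars of the first 4 genes run down to or past 0.

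Accessory subunits of polymerases I and III fell and stayed called under TMM. In polymerase III, RPC7 (*SI65_02991*), known from yeast as Rpc31, a part of the subcomplex used for initiation, had 17.5, 13.9 and 14.8 FPKM in EcCK and 0.660, 1.15 and 0.419 in EcRS (-4.34 ± 0.45, adjusted p = 5.8e-05). Its yeast subcomplex partners were not called: RPC3 (*SI65_04903*) was at -0.68 ± 0.27 and RPC6 (*SI65_06073*) at -0.74 ± 0.24. RPC4 (*SI65_04542*), yeast Rpc53, which takes part in termination, had 15.6, 24.4 and 34.3 FPKM in EcCK and 1.74, 1.08 and 2.49 in EcRS (-3.81 ± 0.43, adjusted p = 8.9e-05). In polymerase I, RPA49 (*SI65_03121*), which helps the enzyme start and elongate in yeast, had 5.30, 5.23 and 5.75 FPKM in EcCK and 0.760, 0.652 and 0.865 in EcRS (-2.83 ± 0.33, adjusted p = 0.00010).

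RPA43, the stalk subunit of polymerase I, is listed as 3 genes. *SI65_01746* and *SI65_02137* have 1 exon and 1302 coding bases each, the table describes *SI65_02137* by the identifier of *SI65_01746*, and their FPKM stood in a ratio of 0.853 to 1.03 in every library. They may be near-identical copies between which reads cannot be assigned, so they are read as 1 uncertain measurement. *SI65_01746* had 3.81, 3.20 and 5.62 FPKM in EcCK and 0.667, 0.486 and 0.495 in EcRS (-2.93 ± 0.40, adjusted p = 0.00023), and its copy was at -2.79 ± 0.39. The other gene with this number, *SI65_06614*, carries terms for DNA binding and heterodimerization rather than transcription, and had 21.1, 25.8 and 29.9 FPKM in EcCK and 22.4, 17.6 and 29.6 in EcRS (-0.14 ± 0.31, not called).

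The genes that rose were mostly small subunits. RPB8 (*SI65_06660*), shared by all 3 polymerases, had 8.72, 8.19 and 12.7 FPKM in EcCK and 56.7, 40.2 and 51.2 in EcRS, with no overlap, about 4.99-fold higher (log2 2.32 ± 0.32, adjusted p = 0.00025). RPB11 (*SI65_07548*), which pairs with RPB3 to begin the assembly of polymerase II, had 26.3, 27.9 and 60.3 FPKM in EcCK and 206, 161 and 164 in EcRS (2.21 ± 0.36, adjusted p = 0.00069). RPB3 (*SI65_08472*) itself had 65.9, 55.8 and 63.5 FPKM in EcCK and 67.4, 42.6 and 45.2 in EcRS (-0.25 ± 0.26, and 0.56 under TMM, not called).

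RPC40 and RPC19, the counterparts of RPB3 and RPB11 in polymerases I and III, were both called. RPC40 (*SI65_04028*) had 7.31, 7.31 and 6.93 FPKM in EcCK and 25.2, 19.0 and 24.2 in EcRS (1.67 ± 0.26, adjusted p = 0.00053). RPC19 (*SI65_03456*) had 12.7, 7.40 and 19.6 FPKM in EcCK and 36.5, 24.9 and 30.5 in EcRS (1.21 ± 0.40, adjusted p = 0.024). The call on RPC19 was lost without EcCK2 (0.92, adjusted p = 0.081), without EcRS1 (1.07, adjusted p = 0.085) or without EcRS3 (1.21, adjusted p = 0.059).

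The stalk subunit RPC8 (*SI65_04831*), which lies close to emerging RNA, had 5.67, 4.46 and 9.57 FPKM in EcCK and 31.2, 26.4 and 31.6 in EcRS (2.18 ± 0.36, adjusted p = 0.00073). A further gene with the RPC8 number, *SI65_10201*, overlapped between groups (0.09 ± 0.35). Its terms name negative regulation of transcription by RNA polymerase II, zinc homeostasis and membrane. None names RNA polymerase III, so its place there rests on the orthology number alone. The stalk of polymerase II moved otherwise. RPB7 (*SI65_02354*) had 92.3, 112 and 123 FPKM in EcCK and 41.4, 51.2 and 49.0 in EcRS (-1.21 ± 0.24, adjusted p = 0.0018, and -0.37 and not called under TMM), and its partner RPB4 (*SI65_10142*) overlapped between groups (-0.06 ± 0.30, and 0.80 under TMM).

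Among the other shared subunits, RPB5 (*SI65_05298*) was called at -1.08 ± 0.28 (adjusted p = 0.0073), with 75.4, 98.2 and 123 FPKM in EcCK and 45.3, 39.2 and 56.2 in EcRS. That call was lost under TMM (-0.22), without EcCK3 (-0.89) and without EcRS2 (-0.96). RPB6 (*SI65_01636*, -0.34 ± 0.33, and 0.52 under TMM) and RPB12 (*SI65_00258*, 0.37 ± 0.30) were not called. RPB12 and 3 further small subunits, RPA12 (*SI65_08651*), RPB9 (*SI65_03644*) and RPC11 (*SI65_01010*), were not called with the per-library scaling of the FPKM but were called up-regulated under TMM, at 1.17, 1.64, 1.31 and 1.49, and by DESeq2, at 1.19, 1.67, 1.34 and 1.52. RPA12, RPB9 and RPC11 hold corresponding places in the 3 polymerases, where they help the enzyme cut back its RNA. In RPA12 a high EcRS1 set the difference, with 18.0, 6.68 and 6.09 FPKM in EcRS and 5.54, 6.26 and 5.74 in EcCK.

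Subunits of a complex therefore stood further apart in EcRS than in EcCK in some complexes. Mean FPKM, which is per length, spanned a ratio of highest to lowest gene of 2.87 in EcCK and 6.25 in EcRS for polymerase II. For TFIIF the ratio went from 3.86 to 38.7, and for the 6 polymerase I genes with a transcription term, the uncertain RPA43 copies included, from 2.86 to 18.7. It narrowed from 23.0 to 9.34 for the shared subunits and from 2.53 to 1.56 for TFIIE. These ratios have no test, and none were taken for other sets of genes, so a background for them is lacking.

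Coding length moved with the change. The 7 up-regulated genes had a median coding length of 432 bases (336 to 1434) and the 28 down-regulated genes one of 1180.5 (510 to 4356). All genes had the same order, 798 bases for up-regulated and 1407 for down-regulated genes. Spearman's correlation of length with log2 fold change was -0.331 over the 55 genes and -0.227 over all genes tested, as a description over genes that share the same libraries, and -0.323 and -0.224 under TMM. The part of length in the rise of the small subunits was not tested.

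**Figure D4:**
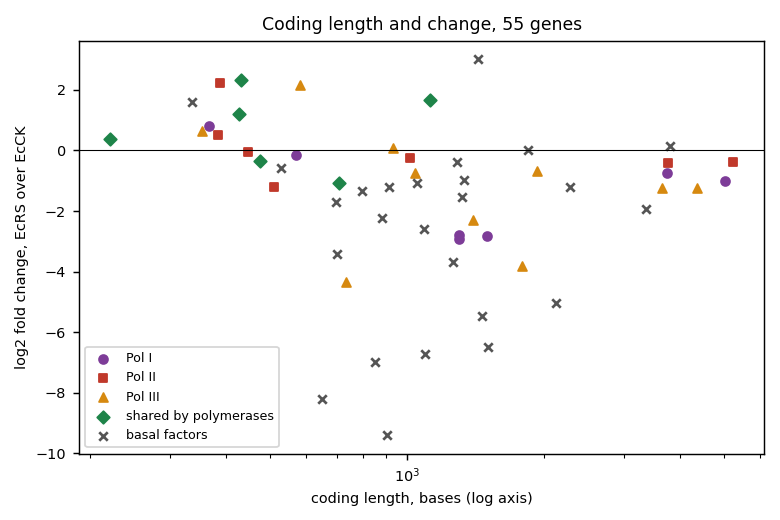
Log2 fold change of EcRS over EcCK against coding length (log axis, bases) for the 55 genes, marked by polymerase or as basal factor. Of the genes at or above 1, most are shorter than 600 bases, with RPC40 and *SI65_04973* as longer exceptions, and the catalytic subunits at the right end lie between -1.23 and -0.37.

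On *P. notoginseng* roots few of these calls were made. In EcSQ against EcCK, 2 of the 55 genes were up-regulated and none down-regulated by edgeR, where 1.72% and 1.87% of all 9160 genes tested were. At an unadjusted p under 0.05 there were 7, of which 2 were lower, beside 1894 of all 9160 genes, 894 of them lower. DESeq2 called 5 down- and 7 up-regulated, beside 11.3% and 13.9% of all genes. Under TMM 1 gene was down-regulated, *SI65_02228* (-4.53, adjusted p = 0.036), and 4 were up-regulated, RPB11 (3.86, adjusted p = 0.041), RPB8 (2.51, adjusted p = 0.031), RPC8 *SI65_04831* (2.40, adjusted p = 0.040) and *SI65_04973* (3.64, adjusted p = 0.024), beside 4.9% and 4.71% of all genes. The median log2 fold change was -0.02, beside -0.01 for all genes. The calls were RPB11, with 177, 193 and 599 FPKM in EcSQ (3.08 ± 0.69, adjusted p = 0.047), and *SI65_04973* (3.34 ± 0.55, adjusted p = 0.021). Both were above EcCK in every EcSQ library. With other libraries left out in turn, the call on RPB11 was lost without any of the EcCK libraries (adjusted p = 0.203, 0.208 and 0.077), without EcSQ1 (0.050) and without EcSQ2 (0.165), and that on *SI65_04973* without EcCK1 (0.094), EcCK2 (0.119), EcCK3 (0.054) or EcSQ2 (0.151). With libraries of the same number as a block, neither was called.

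Without EcSQ3 the comparison gave 6 up- and 2 down-regulated genes, beside 9.88% and 6.69% of all genes. The 6 were RPB8 (2.53 ± 0.51, adjusted p = 0.010), RPB11 (2.28 ± 0.46, adjusted p = 0.011), RPC40 (2.14 ± 0.43, adjusted p = 0.010), RPC8 *SI65_04831* (2.12 ± 0.55, adjusted p = 0.027), *SI65_04973* (3.40 ± 0.44, adjusted p = 0.0019) and *SI65_06614* (1.56 ± 0.47, adjusted p = 0.047). In FPKM, RPB8 had 70.4 and 43.9 in EcSQ1 and EcSQ2 and 34.7 in EcSQ3, all above the EcCK range. RPC40 had 30.0, 33.3 and 9.35, and RPC8 had 32.3, 24.7 and 25.7. The 2 that fell were *SI65_02228* (-3.58 ± 0.62, adjusted p = 0.0056) and *SI65_02227* (-1.63 ± 0.44, adjusted p = 0.030).

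The EcSQ libraries differed in the genes that were lower in EcRS. Of 28 genes whose EcRS mean of log2(FPKM + 1) was at least 1 below that of EcCK, 26 (92.9%) were nearer EcRS in EcSQ3, 8 (28.6%) in EcSQ2 and 2 (7.14%) in EcSQ1. Over all 4026 such genes the shares were 93.3%, 38.8% and 16.8%, so this split of the libraries was not particular to the 55. Of 7 genes at least 1 higher in EcRS, 6 were nearer EcRS in EcSQ3, 6 in EcSQ2 and 7 in EcSQ1. Over all 1168 such genes the shares were 72.7%, 77.4% and 79.6%, so most of these were nearer EcRS in every EcSQ library too. TFIIF1 had 41.8, 11.8 and 2.38 FPKM in EcSQ1 to EcSQ3, TAF10 *SI65_06703* had 26.9, 8.22 and 0.369, and RPC7 had 16.5, 6.91 and 0.570. TBP had 266, 230 and 325 FPKM, all below the EcCK libraries and all above those of EcRS (-0.83 ± 0.45 against EcCK, not called). For RPB1 the EcSQ values of 43.2, 65.2 and 75.4 enclosed the EcCK range.

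**Figure D5:**
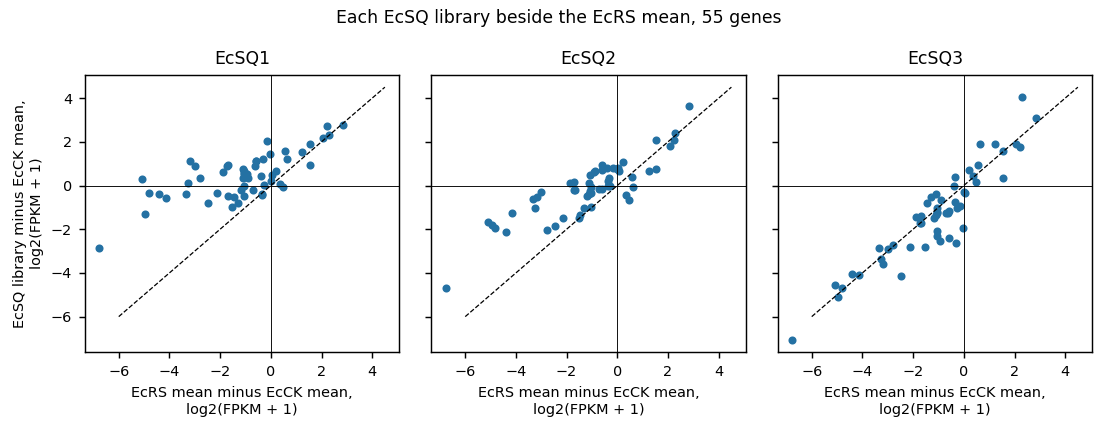
Change of each of the 55 genes from the EcCK mean in EcSQ1, EcSQ2 and EcSQ3 (vertical axes) against the change of the EcRS mean (horizontal axes), all in log2(FPKM + 1), with the line of equal change dashed. Genes on the left of each panel approach the line in EcSQ3, where 26 of 28 genes that were lower in EcRS by at least 1 were nearer EcRS than EcCK, while on the right RPB11 lies above the line in EcSQ3 and RPC40 below it.

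The direct comparison of root species, EcRS against EcSQ, shares the EcRS and EcSQ libraries with the comparisons above. No gene of the 55 was called by edgeR, with backgrounds of 0% down- and 0.0342% up-regulated among 8784 genes. The smallest adjusted p was 0.099. At an unadjusted p under 0.05 there were 19 genes, all lower in EcRS, beside 2670 of the 8784 genes, 2387 of them lower. DESeq2 called 14, all lower in EcRS, beside 12.1% of all genes. Under TMM none was called, and 15 had an unadjusted p under 0.05, beside 2155 of all genes. TAF9, at -8.42 ± 1.93, and TFIIF1, at -3.45 ± 0.99, were among those at the smallest adjusted p. Without EcSQ3, 31 of the 55 were down-regulated in EcRS and none up-regulated, beside 49.8% and 4.23% of all genes. TFIID genes had a median log2 fold change of -2.02 in this comparison and shared polymerase subunits one of -0.15, beside -0.84 for all genes.

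The neighbouring machinery, listed by annotation terms and without the 55 genes, was counted in EcRS against EcCK. The shares over all genes given above, 47.6% down- and 12.8% up-regulated and under TMM 31.4% and 26.4%, apply here too. Of the TFIIH genes left out by the rule 9 of 12 tested were down-regulated and none up-regulated (median -2.39), and under TMM 8 and 1. For TFIIIB and TFIIIC, which place polymerase III on its genes, it was 6 of 6 (median -4.74), under TMM too, and their summed level was 79.3 to 103 FPKM in EcCK, 7.10 to 8.64 in EcRS and 78.4, 49.0 and 3.44 in EcSQ1 to EcSQ3. Mediator, which links activators to polymerase II, had 13 of 22 down-regulated and 2 up-regulated (median -1.81), and under TMM 11 and 3. SAGA had 15 and none of 21 tested (median -2.39), and under TMM 13 and 1. For elongation by polymerase II it was 14 and 2 of 24 (median -1.33), and under TMM 10 and 4. The elongation list is broad, and also holds subunits of the 26S protease and a prefoldin subunit. Mediator had 59.1% down-regulated and 50.0% under TMM, and elongation 58.3% and 41.7%. These lie nearer the shares over all genes than those of TFIIH, of SAGA, and of TFIIIB and TFIIIC. No list was tested as a set. The gene annotated to the core factor of polymerase I, *SI65_01515*, rose from 93.1, 122 and 219 FPKM to 428, 305 and 460 (1.46 ± 0.37, adjusted p = 0.0076). In EcSQ against EcCK none of these genes was called by edgeR except *SI65_09289*, on the list of TFIIH genes left out (-3.47 ± 0.66, adjusted p = 0.030), with 9.05, 8.32 and 12.7 FPKM in EcCK and 1.08, 0.964 and 0.674 in EcSQ. Under TMM it stayed called (-3.25 ± 0.50, adjusted p = 0.021) and the Mediator gene *SI65_01109* was called up-regulated (2.09 ± 0.45, adjusted p = 0.033).

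Because EcCK is described both as mycelium and as spores, genes annotated to spores or sporulation were counted as well. This list is broad, with histone H3 among its most abundant genes. Of 179 tested, 62 (34.6%) were down-regulated and 23 (12.85%) up-regulated in EcRS against EcCK (median -0.42). Under TMM it was 39 (21.8%) and 61 (34.1%), with a median of 0.43, so its balance turned with the scaling. The shares over all genes moved the same way, from 47.6% and 12.8% (median -0.96) to 31.4% and 26.4% (median -0.11). The median of the list lay 0.54 above that of all genes under both scalings. The summed level of all 183 was 23760 to 32748 FPKM in EcCK, 39408 to 44816 in EcRS and 35042 to 58187 in EcSQ. None was at 0 in all libraries of a group. The part of growth stage in the results on the 55 genes was not tested.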

How the data were processed

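The authors aligned paired-end reads to an *A. cristatus* genome and deposited an FPKM and an estimated count for each gene in each library. Tools listed in the submitters' processing notes, with no role given, are Bowtie 0.12.2, HISAT2 2.0 and StringTie 1.3.0. Within a library the deposited estimated counts were a fixed multiple of FPKM times length, so they derive from coverage. In EcCK and EcRS they exceed the study's valid reads, so the count model may overstate precision. Intervals, standard errors and p-values from them are approximate. Lengths were all multiples of 3 and are coding lengths. The quasi-likelihood test of edgeR 4.0.16 (R 4.3.3) was run on rounded counts of all genes averaging 1 FPKM or more in the compared libraries, with library sizes set to the scaling factor behind the FPKM. A call required a Benjamini-Hochberg adjusted p of at most 0.05 together with a change of 1 or more on the log2 scale. Standard errors were derived from the fitted change and its F statistic. Tested on simulated data for EcRS against EcCK (8925 genes), this recovered 23 of 56 genes with a 2-fold change. It recovered 70 of 70 with a 4-fold change and 74 of 74 with an 8-fold change. Of 8725 genes without a change 3 were called. A call itself requires an estimate of at least 2-fold, so many changes of exactly 2-fold are missed at any precision. The simulation used a single dispersion, correct library sizes and few changed genes. It therefore cannot give the rate of false calls in the real data.

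Alternatives were TMM, DESeq2 1.42.0, limma 3.58.1 on log2(FPKM + 1), other pseudocounts and filters, a replicate block, a joint fit of all 9 libraries, and the omission of each library. For EcRS and EcCK libraries with the same number in the labels, deviations from the group means correlated at r = 0.122, 0.202 and 0.294. Pairs of different number ran from -0.282 to 0.195, and the labels name no shared batch, so these values do not establish a pairing. The main fit held no block. The block changed no call on the 55 genes there. The genes to be named were the catalytic subunits, TBP, TFIIB, the largest called rise and fall of each complex, members that share an orthology number with a neighbour, and members without a transcription term. Further subunits were named after their values were seen, to complete each complex. The members and lists were chosen with earlier results of these data known. Sequences were not used here. Figures were drawn with matplotlib 3.10.9.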

Additional observations from a re-analysis of the deposited data

How the results depend on the processing

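In EcRS against EcCK the counts over the 55 genes depended on the scaling, as did those over all genes. DESeq2 called 18 down- and 12 up-regulated (median log2 fold change -0.20), beside 31.5% and 27.2% of all genes (median -0.08). TMM likewise called 18 and 12 (median -0.22), beside 31.4% and 26.4% (median -0.11). With a pseudocount of 5 limma gave a median of -0.71, beside -0.51 for all genes, on a scale that shrinks low genes. Leaving out each library in turn gave 23 to 30 down-regulated, 6 to 7 up-regulated and medians of -1.11 to -0.85. Without EcCK3, where 23 were down-regulated, the share over all genes was 43.85% (median -0.73). Without any one library 22 of the 28 and 6 of the 7 stayed called. In EcSQ against EcCK, DESeq2 called 5 down- and 7 up-regulated, beside 11.3% and 13.9% of all genes. TMM called 1 and 4, beside 4.9% and 4.71%. With all 9 libraries in one fit it was also 1 and 4, beside 592 and 705 of all 9160 genes. With a pseudocount of 1, limma called 1 down- and 3 up-regulated, beside 339 and 257 of all genes. With a pseudocount of 5 it called 1 down-regulated. The replicate block gave 0 up-regulated, and leaving out each library gave 0 to 2 down- and 0 to 6 up-regulated. Without EcSQ3, which gave 2 and 6, the shares over all genes were 6.69% and 9.88%. In EcRS against EcSQ, 14 were down-regulated with DESeq2, beside 12.1% of all genes. With all 9 libraries in one fit 14 were, beside 1105 of all 8784 genes. Leaving out each library gave 0 to 31. Without EcSQ3, which gave 31, the share over all genes was 49.8%. The causes were not tested. EcSQ libraries of a number did not deviate together with EcCK (r = -0.049, -0.039 and -0.112), so the block there shares no more than a number. In simulated data changes of exactly 2-fold were recovered less often than larger ones, which follows from the 2-fold limit of a call. Genes with fewer than 10 counts in EcRS, such as TAF9, have an uncertain size of change.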
